A study of Homo sapiens with 18 samples.

Results

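Receptor tyrosine kinases that myeloid cells use to read growth factors were described at the mRNA level: FLT3, KIT, CSF1R, AXL, MERTK, TYRO3, IGF1R and INSR. These 8 genes were chosen by name, were found by Ensembl ID, and made up 8 of the 40184 genes in the deposited table. The levels come from RNA-seq of 18 cultures of 3 human acute myeloid leukaemia lines, Molm-14 and MV4-11 (genotype FLT3-ITD, an internal tandem duplication in FLT3) and SKNO-1 (genotype KIT N822K, a point mutation in the kinase). Each line was kept for 24 h with the vehicle DMSO or with RMC-4550 at 500 nM, an allosteric inhibitor of the phosphatase SHP2, with 6 groups of 3 cultures labelled biological replicates. Both arms of SKNO-1 received GM-CSF at 10 ng/mL and the other lines received none, so effects of line and of GM-CSF cannot be told apart. Each line stands for 1 leukaemia, and reads were counted per gene, so a mutant allele and any normal allele were not told apart.

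A receptor tyrosine kinase is switched on when its ligand brings receptor chains together and they phosphorylate each other on tyrosines. SHP2, encoded by PTPN11, is recruited to these tyrosines or to docking proteins beside them and is needed for full activation of RAS and the MAPK cascade. FLT3 and KIT act in blood stem and progenitor cells, and CSF1R drives the monocyte and macrophage lineage. AXL, TYRO3 and MERTK bind GAS6 and take part in the clearance of dying cells. Protein S is a ligand of TYRO3 and MERTK, and IGF1R and INSR answer to insulin-like growth factors and insulin.

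The libraries were of similar depth, from 17434810 to 19959917 reads, and replicates within a group correlated at 0.962 to 0.980 (Pearson, log2 values across genes). The share of mitochondrial reads was above 10% in 4 libraries, at 15.0% in Molm-14 replicate 2 with RMC-4550, 12.7% and 14.6% in MV4-11 replicates 1 and 3 with DMSO, and 10.5% in MV4-11 replicate 1 with RMC-4550, against 5.07% to 7.02% in the other 14. A fit without these 4 libraries keeps 1 MV4-11 library with DMSO and 2 with RMC-4550. Its MV4-11 differences and calls therefore rest on that 1 DMSO culture. RUNX1T1, the partner in the fusion gene known in SKNO-1, had 286 to 306 reads per SKNO-1 library with DMSO and at most 1 read in each library of the other lines. Of 9261 genes read at 10 CPM or more in Molm-14 with DMSO, 0 fell below 1% of that level in MV4-11 and 69 did in SKNO-1, while 61 of 9416 such MV4-11 genes were that low in Molm-14. Whether RNA or cells of Molm-14 were present in the MV4-11 cultures was not tested, so MV4-11 levels are given as read. The pan-leukocyte gene PTPRC and the myeloid gene CD33 were read in every library, the progenitor marker CD34 had at most 4 reads in any, and the summed T cell markers (3 genes) and epithelial markers (3 genes) each stayed at 0.0928 CPM or lower. Summed B cell markers ran from 1.36 to 3.65 CPM in Molm-14, 9.10 to 12.5 in MV4-11 and 14.6 to 17.8 in SKNO-1, erythroid markers reached at most 2.50 CPM and fibroblast markers 14.6 CPM.

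CSF1R and AXL rose with RMC-4550 in all 3 lines and TYRO3 fell in all 3. FLT3 rose in MV4-11 and SKNO-1, and INSR rose in SKNO-1. The sequence upstream of annotated starts, 250 bases or as many as lie before the first base annotated as untranslated, is shown for the 3 genes that moved in the same direction in every line, with 1 window each for AXL and TYRO3 out of 2. Capitals mark letters of a motif searched on both strands. The motifs were TGANTCA for AP-1, GAGGAAG for PU.1, TGTGGTT for RUNX, GTAAACA for FOXO and CCGGAAG for ETS factors. Sequences are from RefSeq, build GRCh38.p14, in the direction of the gene.
CSF1R, chr5:150113373-150113615, minus strand: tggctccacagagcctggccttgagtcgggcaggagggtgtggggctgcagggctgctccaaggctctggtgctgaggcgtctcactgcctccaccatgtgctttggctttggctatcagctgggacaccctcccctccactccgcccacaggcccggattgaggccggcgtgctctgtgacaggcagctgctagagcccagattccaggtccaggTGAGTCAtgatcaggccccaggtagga
CSF1R, chr5:150086608-150086804, minus strand: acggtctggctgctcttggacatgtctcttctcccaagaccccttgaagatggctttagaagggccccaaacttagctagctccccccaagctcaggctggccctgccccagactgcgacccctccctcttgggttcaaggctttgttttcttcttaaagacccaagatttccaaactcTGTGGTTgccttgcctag
AXL, chr19:41218973-41219202, plus strand: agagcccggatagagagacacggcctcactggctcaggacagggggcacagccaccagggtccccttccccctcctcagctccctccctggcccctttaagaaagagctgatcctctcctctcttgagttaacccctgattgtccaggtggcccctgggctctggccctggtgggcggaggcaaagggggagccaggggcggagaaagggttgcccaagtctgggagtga
TYRO3, chr15:41558962-41559033, plus strand: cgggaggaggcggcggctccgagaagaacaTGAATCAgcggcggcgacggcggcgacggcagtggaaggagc
The distal CSF1R window held 1 match to the AP-1 letters, which 6.48% of 35116 promoter windows of that length held. The CSF1R window nearer the coding exons held 1 match to the RUNX letters, against 2.89% of windows of its length. The TYRO3 window of 72 bases held 1 match to the AP-1 letters, against 1.69%. The search let any base stand at the N of TGANTCA. The TYRO3 match read TGAATCA and the CSF1R match TGAGTCA, so they differ at that base and are not read as a shared site. Binding of AP-1 was not tested at either. The TYRO3 window lies inside the gene, which GENCODE 29 starts at 41557675. It is the far part of the 250 bases before a RefSeq start, and the bases nearer that start were not searched. The AXL window shown and a second AXL window, which is not shown, held no match to the 5 motifs. Over all 11 windows of the 8 genes, 4 held a match, the fourth being a RUNX match (AACCACA, the other strand) before a second TYRO3 start, against 3.65% of windows. The share of all windows with any of the 5 motifs was not counted, so the 4 of 11 is not read as many or few. These are letter matches only.

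In DMSO, FLT3 was the most abundant of the 8 mRNAs in every line, per kilobase of the longest principal transcript (CPM per kb). Its level was 162 ± 2.53 in Molm-14, 107 ± 21.04 in MV4-11, with SKNO-1 at 85.4 ± 2.23 (CPM per kb, SD, n = 3). INSR came next in Molm-14 at 39.0 ± 1.05 and in MV4-11 at 34.0 ± 3.19, while in SKNO-1 CSF1R, at 33.2 ± 1.10, lay above INSR, at 27.8 ± 0.446 (CPM per kb). Molm-14 continued with IGF1R, CSF1R, AXL, TYRO3, KIT and MERTK. MV4-11 continued with CSF1R, IGF1R, AXL, KIT, TYRO3 and MERTK, and SKNO-1 with KIT, AXL, IGF1R, MERTK and TYRO3. KIT and MERTK in Molm-14 overlapped between libraries, and all other neighbours in these orders were separated in the 3 libraries of the group. The orders were unchanged when all annotated exons were used as the length. FLT3 made up 74.2% ± 0.457 of the summed CPM per kb of the 8 genes in Molm-14, against 65.1% ± 1.49 in MV4-11 and 53.7% ± 0.865 in SKNO-1. Unlike the orders, these shares depend on the length used. INSR in Molm-14, at 39.0 CPM per kb of principal transcript, was at 17.6 with all annotated exons.

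**Figure D1:**
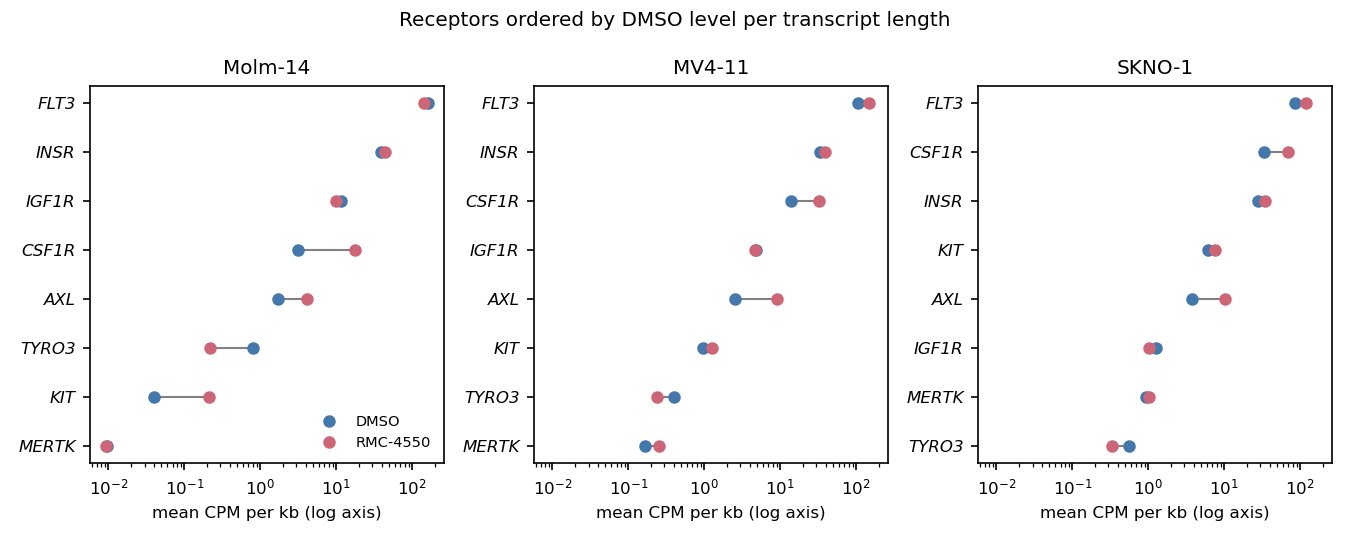
Mean CPM per kb of principal transcript (log axis) of the 8 receptors in each line, ordered by the DMSO level, with DMSO in blue and RMC-4550 in red (n = 3 cultures each). FLT3 leads in all 3 lines, and CSF1R and AXL move to the right with RMC-4550 in each.

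The lines differed in which receptors they carried without the inhibitor. These contrasts share DMSO libraries, so they are not independent of each other. MV4-11 against Molm-14 called 1 of 6 tested members higher and 4 lower, where 51.6% of all tested genes were called (21.7% higher, 30% lower). SKNO-1 against Molm-14 called 2 of 6 higher and 4 lower, against 60.7% of all genes (27.4% higher, 33.3% lower), and SKNO-1 against MV4-11 called 3 of 7 higher and 2 lower, against 39.6% (18.9% higher, 20.6% lower). Calls were frequent among all genes too, so these counts are read only as which receptor differed. All 8 members had DMSO libraries that did not overlap between SKNO-1 and Molm-14, 4 higher in SKNO-1 and 4 lower, against 37.3% and 44.9% of tested genes. Between MV4-11 and Molm-14, 4 were higher and 4 lower without overlap, against 24.7% and 34.7%. Between SKNO-1 and MV4-11 it was 4 higher and 3 lower, against 25.7% and 25.3%. The shares are of tested genes, while the counts include members not tested. These were KIT and MERTK against Molm-14, and MERTK between SKNO-1 and MV4-11.

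Among the 6 members tested in every line, CSF1R and IGF1R gave the largest differences between SKNO-1 and Molm-14, in opposite directions. CSF1R, the receptor for CSF1 and IL-34, had its highest level in SKNO-1, 132 ± 4.38 CPM, then 56.3 ± 11.5 in MV4-11 and 12.6 ± 2.25 in Molm-14 (SD, n = 3), a log2 difference of 3.41 ± 0.17 (SE) between SKNO-1 and Molm-14 (limma adjusted p = 6.1e-11). IGF1R ran the other way, at 142 ± 3.85 CPM in Molm-14, 58.4 ± 12.2 in MV4-11, with SKNO-1 lowest at 15.7 ± 0.575, a log2 difference of -3.17 ± 0.15 (limma adjusted p = 2.1e-11). The steps through MV4-11 also passed the test, at 2.15 and 1.25 on the log2 scale for CSF1R and at -1.30 and -1.88 for IGF1R. Both orders held in every library, with no overlap between lines.

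KIT, the stem cell factor receptor, was carried mainly by the line with the KIT mutation. It was read at 32.2, 33.4 and 31.4 CPM in SKNO-1 and at 5.704, 5.01 and 4.19 CPM in MV4-11 (replicates 1 to 3, DMSO), a log2 difference of 2.70 ± 0.26 (SE; limma adjusted p = 6.5e-07). Molm-14 had 6, 2 and 3 KIT reads per library and was not tested. Over the summed reads, KIT in SKNO-1 was 157 times the Molm-14 level (95% exact binomial interval 87.3 to 314) and in MV4-11 it was 24.2 times that level (13.3 to 49.1). MERTK, a receptor of clearing macrophages, followed the same order, with 80, 79 and 82 reads in SKNO-1, 17, 14 and 6 in MV4-11, and 0, 2 and 0 in Molm-14. The MERTK ratio of SKNO-1 to MV4-11 was 5.52 (3.89 to 8.03), and that of SKNO-1 to Molm-14 was 99.2 (27.2 to 824), an interval kept wide by the 2 Molm-14 reads. These intervals on summed KIT and MERTK reads cover counting error and not the spread between cultures.

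FLT3 itself was higher in Molm-14 than in the other lines, by log2 differences of -0.62 in MV4-11 (limma adjusted p = 5.6e-04) and -0.92 in SKNO-1 (limma adjusted p = 5.6e-06), and SKNO-1 against MV4-11 gave -0.31 (limma adjusted p = 0.055). Without the libraries above 10% mitochondrial reads, which leaves 1 MV4-11 DMSO library, the FLT3 difference of MV4-11 from Molm-14 was -0.31 and that of SKNO-1 from MV4-11 was -0.62. The latter was called in 5 settings and in 3 fits with 1 library left out. Over all 18 fits with 1 library left out it ran from -0.41 (without MV4-11 DMSO replicate 1) to -0.15. TYRO3 was lower in MV4-11 than in Molm-14 by a log2 difference of -1.02 (limma adjusted p = 5.4e-04), and in SKNO-1 by -0.54 (limma adjusted p = 0.027), a call lost without Molm-14 replicate 1 or 3 or SKNO-1 replicate 1 or 3, at -0.56 to -0.41. AXL was higher in SKNO-1 than in Molm-14 by 1.13 (limma adjusted p = 3.4e-04). MV4-11 against Molm-14 gave 0.54 for AXL (limma adjusted p = 0.052), and 1.02 without the libraries above 10% mitochondrial reads, and was called in 4 settings and 5 fits with 1 library left out. Its difference between SKNO-1 and MV4-11, 0.59 (limma adjusted p = 0.046), was 0.11 without the libraries above 10% mitochondrial reads, and it also lost its call in 6 other settings and 13 of 18 fits with 1 library left out. INSR was lower in SKNO-1 than in Molm-14 by -0.49 (limma adjusted p = 3.5e-05) and than in MV4-11 by -0.29 (limma adjusted p = 0.0077). The INSR difference of MV4-11 from Molm-14, -0.20 (limma adjusted p = 0.036), was -0.05 without those libraries and lost its call in 5 other settings.

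**Figure D2:**
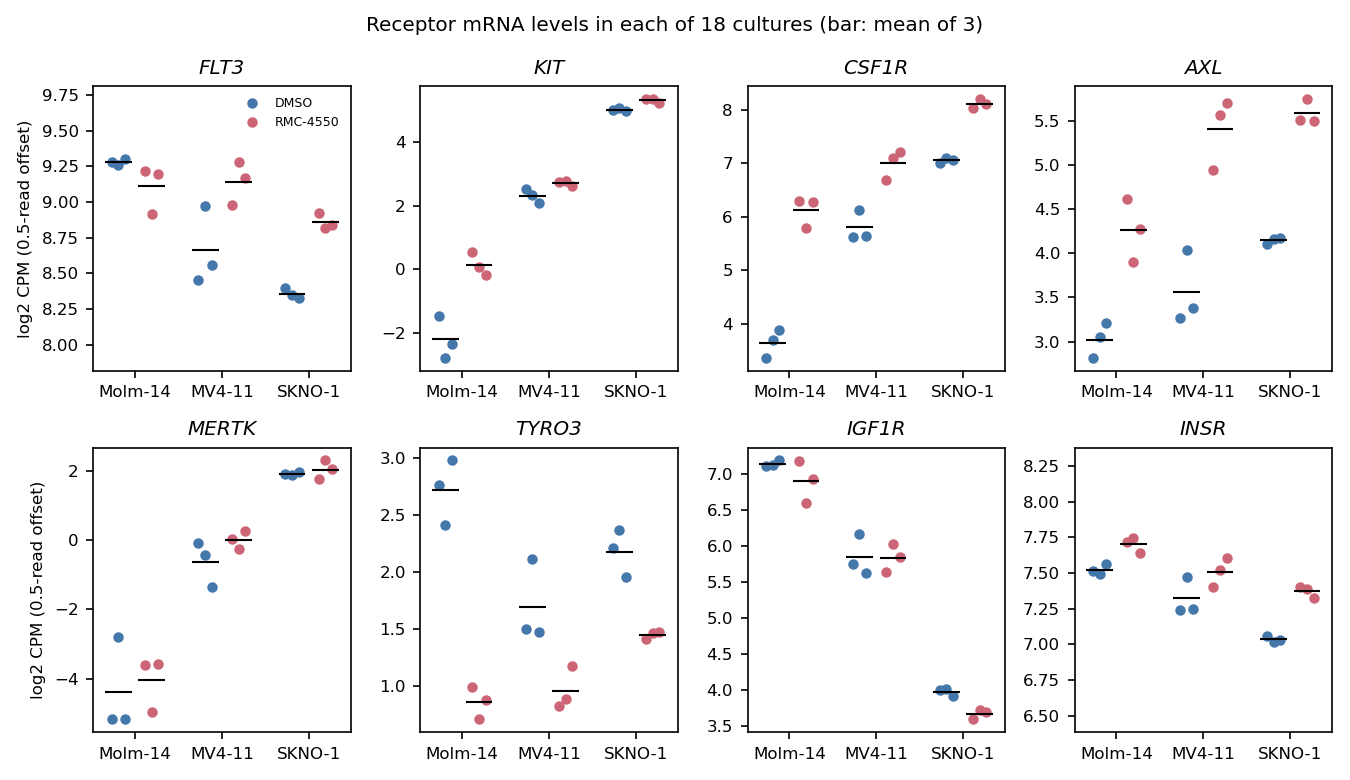
Deposited log2 CPM (with an offset of 0.5 reads) of each receptor in all 18 cultures, with DMSO in blue, RMC-4550 in red and a bar at the mean of 3, on an axis fitted to each gene. CSF1R and AXL are higher and TYRO3 lower with RMC-4550 in each line without overlap, and MERTK in Molm-14 rests on 0 to 2 reads per library.

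With RMC-4550, 2 of 6 tested members rose and 1 fell in Molm-14, where 46.7% of 13971 genes were called. In MV4-11, 3 of 7 rose and 1 fell, against 13.9% of 14739 genes, and in SKNO-1, 4 of 8 rose and 1 fell, against 27.1% of 14670 genes. Of all tested genes, 21.5% (Molm-14), 5.85% (MV4-11) and 10.8% (SKNO-1) were called higher, and 25.2%, 8.03% and 16.2% were called lower. With median-ratio scaling the split in SKNO-1 was 1977 higher and 1932 lower, against 1588 and 2381. Groups without overlap were found for 4 members higher and 2 lower in Molm-14 (26.9% and 33.1% of tested genes), 4 and 1 in MV4-11 (11.1% and 13.5%), and 5 and 2 in SKNO-1 (26.6% and 35.4%). These counts cover all 8 members, with KIT in Molm-14, which was not tested, among those higher. Among 12792 genes tested in all 3 lines, 3.11% were called higher in each and 5.8% lower in each. The 6 members so tested held 2 of the first kind, CSF1R and AXL, and 1 of the second, TYRO3.

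CSF1R was read at 10.2, 12.9 and 14.7 CPM in Molm-14 with DMSO and at 78.1, 55.2 and 77.4 CPM with RMC-4550 (replicates 1 to 3). In MV4-11 it went from 49.4, 69.6 and 49.97 to 103, 137 and 148 CPM, and in SKNO-1 from 128, 136 and 134 to 260, 294 and 276 CPM. Every treated culture lay above every DMSO culture of its line. The log2 change was 2.47 ± 0.17 (SE) in Molm-14 (limma adjusted p = 3.3e-08), 1.2 ± 0.17 in MV4-11 (1.9e-04) and 1.06 ± 0.17 in SKNO-1 (2.5e-04), folds of 5.56, 2.29 and 2.09. The call held in each line under all 12 alternative settings and all 18 fits with 1 library left out. The rise was larger in Molm-14 than in MV4-11 by 1.28 ± 0.24 on the log2 scale (limma adjusted p = 0.0028). Molm-14 with the inhibitor still read less CSF1R than SKNO-1 did without it.

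AXL, a GAS6 receptor studied for its part in drug tolerance of cancers, rose in each line. It was read at 7.001, 8.25 and 9.19 CPM in Molm-14 with DMSO and at 24.4, 14.9 and 19.3 CPM with RMC-4550. In MV4-11 it went from 9.63, 16.4 and 10.4 to 30.7, 47.6 and 52.3 CPM, and in SKNO-1 from 17.3, 17.9 and 18.03 to 45.6, 53.9 and 45.3 CPM. No treated library overlapped a DMSO library of its line, although replicate 2 of Molm-14 with RMC-4550 was the lowest treated value. The log2 change was 1.24 ± 0.22 (limma adjusted p = 3.1e-04), 1.85 ± 0.22 (3.7e-05) and 1.44 ± 0.22 (1.6e-04), folds of 2.36, 3.59 and 2.71. These calls held in all settings. The difference between Molm-14 and MV4-11, -0.61 (95% interval -1.27 to 0.06), did not pass the test (limma adjusted p = 0.17). In the GENCODE annotation 67 exon bases of AXL lie under an antisense gene, AC011510.1, which had 0 to 4 reads per library. Strand use in the counting is not given in the sources used here.

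TYRO3, the relative of AXL that shares its ligand GAS6, moved the other way at low levels. Molm-14 had 6.78, 5.31 and 7.85 CPM with DMSO and 1.97, 1.60 and 1.81 CPM with RMC-4550, a log2 change of -1.86 ± 0.20 (limma adjusted p = 2.3e-06). In MV4-11 the values were 2.80, 4.30 and 2.75 against 1.74, 1.82 and 2.23 CPM, a change of -0.73 ± 0.20 (limma adjusted p = 0.022). In SKNO-1 they were 4.61, 5.14 and 3.86 against 2.64, 2.74 and 2.76 CPM, a change of -0.73 ± 0.20 (limma adjusted p = 0.012). Treated cultures lay below all DMSO cultures in each line, on 25 to 60 reads per treated library. The MV4-11 call was lost without the filter (limma adjusted p = 0.0502), in a fit per line (0.17), and without MV4-11 DMSO replicate 2 (-0.53, adjusted p = 0.067), RMC-4550 replicate 1 (0.060) or RMC-4550 replicate 2 (0.074). The SKNO-1 call was lost without DMSO replicate 2, at -0.63 (limma adjusted p = 0.061). The pseudogene TYRO3P had 1 to 11 reads per library, and how reads were shared with it is not given in the sources used here.

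AXL took a larger share of the GAS6 receptors. Per kb, AXL made up 67.7% ± 3.999 of the summed AXL, TYRO3 and MERTK level in Molm-14 with DMSO and 94.7% ± 0.593 with RMC-4550 (SD, n = 3). The share went from 81.6% ± 3.11 to 94.8% ± 1.34 in MV4-11 and from 71.5% ± 0.875 to 88.2% ± 0.906 in SKNO-1. TYRO3 went from 31.9% to 5.13%, from 12.8% to 2.51% and from 10.6% to 2.88%. MERTK held 17.99% in SKNO-1 with DMSO and 8.93% with RMC-4550, while its own reads were 80, 79 and 82 against 72, 105 and 89 per library. The MERTK change in SKNO-1, 0.12 ± 0.55, did not pass the test (limma adjusted p = 0.90, 95% interval -1.05 to 1.29). MV4-11 had 17, 14 and 6 MERTK reads against 19, 16 and 23, a ratio of 1.47 (95% exact binomial interval 0.958 to 2.29, counting error only), and Molm-14 had 0 to 2 in any library.

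**Figure D3:**
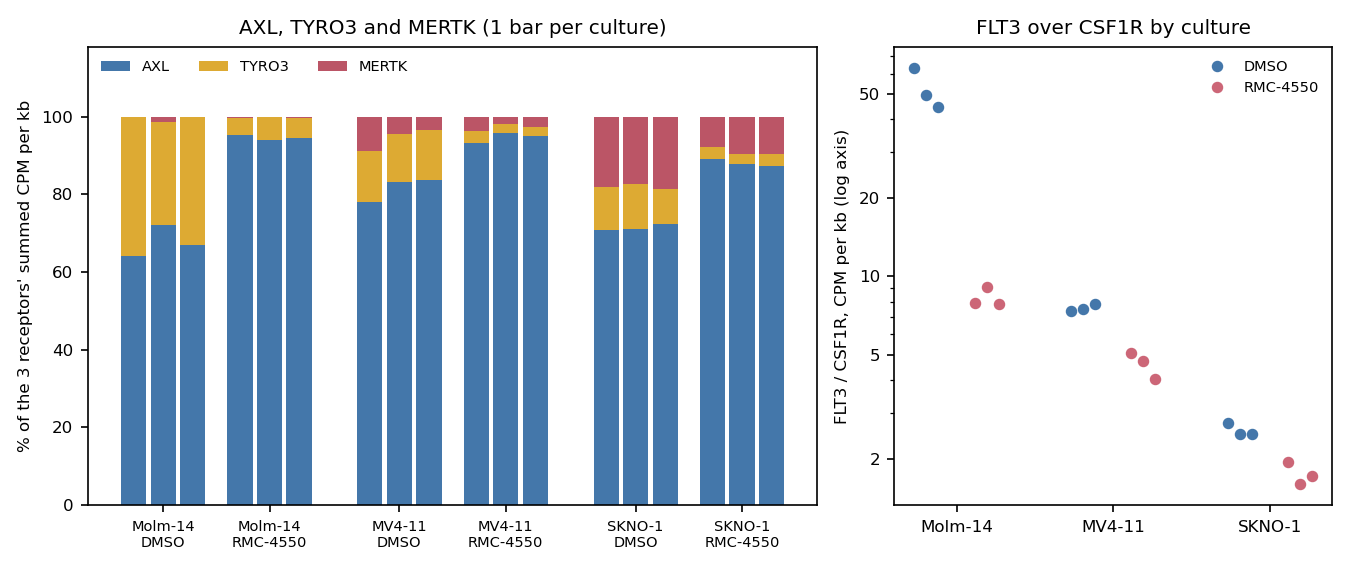
Left, the share of AXL, TYRO3 and MERTK in their summed CPM per kb, 1 bar per culture. Right, the ratio of FLT3 to CSF1R in CPM per kb (log axis) in each culture, with DMSO in blue and RMC-4550 in red; AXL takes 88.2% to 94.8% on average with RMC-4550, and the ratio is lower with RMC-4550 in every line.

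FLT3 was called higher in 2 lines and not in Molm-14. In Molm-14 it was read at 621, 613 and 633 CPM with DMSO and at 597, 484 and 586 CPM with RMC-4550, a log2 change of -0.17 ± 0.12 (limma adjusted p = 0.26). The treated cultures were all lower, and the lowest was replicate 2, the library with 15.0% mitochondrial reads, without which the change was -0.07. In MV4-11 the values were 351, 502 and 378 against 504, 623 and 576 CPM, a change of 0.48 ± 0.12 (limma adjusted p = 0.014). In SKNO-1 they were 337, 326 and 321 against 486, 452 and 458 CPM, a change of 0.51 ± 0.12 (limma adjusted p = 0.0052), which held in all settings. The MV4-11 groups came close without overlap, DMSO replicate 2 being the highest at 502 CPM and RMC-4550 replicate 1 the lowest at 504 CPM. The MV4-11 call was lost in a fit per line (limma adjusted p = 0.18) and without DMSO replicate 1 or 3 or RMC-4550 replicate 2 or 3, where the log2 change was 0.38, 0.43, 0.41 and 0.47 (limma adjusted p = 0.077, 0.063, 0.071 and 0.053). Among MV4-11 libraries under 10% mitochondrial reads the change was 0.25 (1 DMSO and 2 treated), and among those above it was 0.47 (2 and 1).

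The FLT3 response of Molm-14 was lower than that of MV4-11 by -0.65 ± 0.17 on the log2 scale (limma adjusted p = 0.017), although both lines carry the tandem duplication. That call was lost in a fit per line (0.068), and without MV4-11 DMSO replicate 1 (0.053) or RMC-4550 replicate 2 (0.051), as adjusted p-values. The ratio of FLT3 to CSF1R per kb went from 52.4 ± 9.56 to 8.30 ± 0.690 in Molm-14, from 7.57 ± 0.244 to 4.62 ± 0.532 in MV4-11 and from 2.57 ± 0.149 to 1.75 ± 0.173 in SKNO-1 (SD, n = 3). The treated groups lay below the DMSO groups of their line without overlap. FLT3 remained the first of the 8 per kb in every treated group, at 65.4%, 63.1% and 49.3% of the sum.

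KIT was called in neither line where it was tested. In SKNO-1 it was read at 32.2, 33.4 and 31.4 CPM with DMSO and at 40.9, 40.5 and 37.6 CPM with RMC-4550, a log2 change of 0.29 ± 0.26 (limma adjusted p = 0.44). The groups did not overlap, and voom weights or a fit per line called the change. In MV4-11, 5.704, 5.01 and 4.19 CPM stood against 6.65, 6.73 and 6.09 CPM, also without overlap, a change of 0.39 ± 0.26 (limma adjusted p = 0.37). In Molm-14, with 6, 2 and 3 reads against 26, 16 and 15, the ratio of summed reads was 5.35 (95% exact binomial interval 2.78 to 11.3, counting error only). The filter on low values kept KIT out of the test there. The fit without the filter gave a log2 change of 2.35 ± 0.25 (limma adjusted p = 1.6e-06), a size that depends on the 0.5 reads added at such counts. The treated level of 1.10 CPM was still below that of MV4-11 with DMSO.

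INSR and IGF1R are close relatives in structure, and INSR was called in 1 line and IGF1R in 0 in the fit over all samples. In SKNO-1 the INSR level was 133, 129 and 131 CPM with DMSO and 169, 167 and 160 CPM with RMC-4550, a log2 change of 0.34 ± 0.08 (limma adjusted p = 0.0036) that held in all settings. In Molm-14, 183, 180 and 190 CPM stood against 210, 215 and 200 CPM, a change of 0.18 ± 0.08 (limma adjusted p = 0.064). The groups did not overlap, and the change was called in 4 other settings. In MV4-11, 152, 178 and 152 CPM stood against 169, 184 and 194 CPM, a change of 0.19 ± 0.08 (limma adjusted p = 0.13), with overlap. IGF1R gave -0.24 ± 0.15 in Molm-14 (limma adjusted p = 0.19), -0.01 ± 0.15 in MV4-11 (0.98) and -0.31 ± 0.15 in SKNO-1 (0.14). The SKNO-1 change was called lower in a fit per line (limma adjusted p = 0.0079), without the libraries above 10% mitochondrial reads (0.0016) and with a term for the mitochondrial share (5.9e-04). IGF1R in MV4-11 was -0.20 (limma adjusted p = 0.019) with that term and -0.24 without those libraries, and in Molm-14 it was -0.38 (limma adjusted p = 0.045) without RMC-4550 replicate 1. In SKNO-1 the values were 16.0, 16.1 and 15.0 against 12.03, 13.2 and 12.9 CPM, all treated cultures being lower. In Molm-14, replicate 2 with RMC-4550 was lowest at 96.5 CPM, against 146 and 122 CPM in the other treated cultures and 139 to 146 CPM with DMSO.

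**Figure D4:**
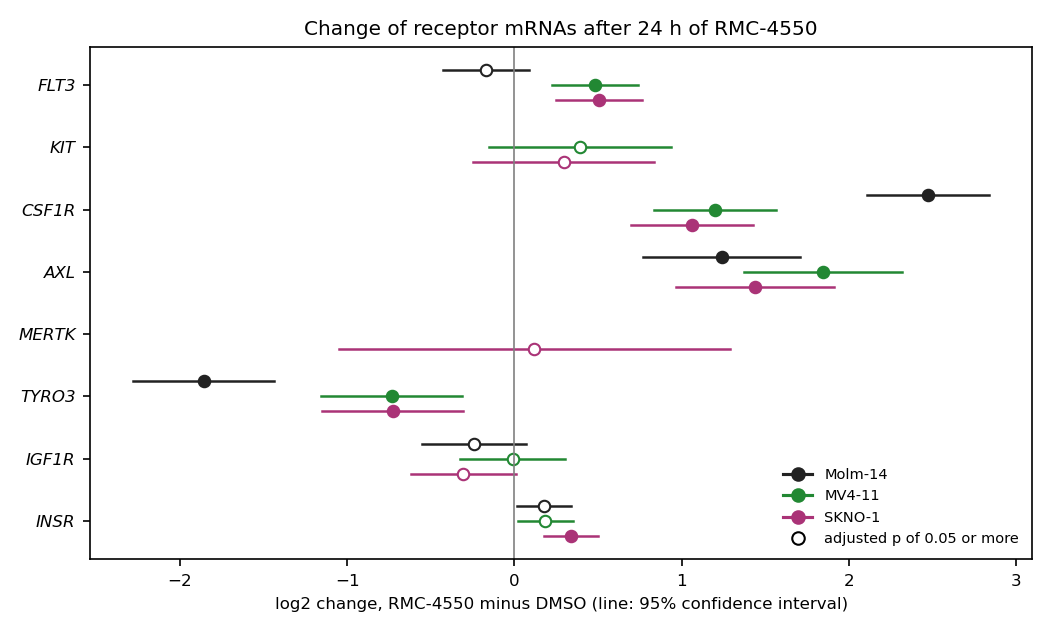
Log2 change with RMC-4550 (RMC-4550 minus DMSO, points) and its 95% confidence interval (lines) for each tested receptor and line, open where the adjusted p was 0.05 or more. The CSF1R and AXL intervals lie above 0 and the TYRO3 intervals below 0 in all 3 lines, and KIT and MERTK are missing where they were not tested.

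The response of SKNO-1, the line with a KIT mutation, was tested against the mean response of the lines with FLT3-ITD. Effects of genotype, line and GM-CSF cannot be told apart, so the test is not read as one of genotype. None of the 6 tested members passed (0 called by limma, 3 at an unadjusted p under 0.05), against 3.8% of 12792 genes (1.35% higher, 2.45% lower). CSF1R came closest, at -0.77 ± 0.21 (limma adjusted p = 0.052), and was called in 4 other settings, including voom weights, and in 4 fits with 1 library left out. FLT3 gave 0.35 (limma adjusted p = 0.26) and TYRO3 0.57 (0.27). Without the libraries above 10% mitochondrial reads, CSF1R gave -0.77, FLT3 0.41, TYRO3 0.70 and INSR 0.21, on 1 MV4-11 DMSO library. Molm-14 against MV4-11 called 3 of 6, against 19.5% of all genes (10.3% higher, 9.12% lower). The log2 change of CSF1R was higher in Molm-14, and those of FLT3 and TYRO3 were lower. The TYRO3 difference was -1.13 ± 0.28 (limma adjusted p = 0.013) and -0.70 without those libraries, on 1 MV4-11 DMSO library.

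Some ligands of these receptors were called as well. Of 8 ligand genes in the table, 3 were tested in Molm-14 with 1 higher and 1 lower, 5 in MV4-11 with 0 called, and 4 in SKNO-1 with 3 higher. GAS6, the ligand of AXL, rose from 279 ± 6.25 to 495 ± 75.4 CPM in Molm-14 (SD, n = 3), by 0.82 ± 0.12 on the log2 scale (limma adjusted p = 6.1e-05). In SKNO-1 it rose from 70.3 ± 3.31 to 105 ± 3.6 CPM, by 0.58 (limma adjusted p = 0.0022), and MV4-11 gave 0.30 (limma adjusted p = 0.13), or 0.49 without the libraries above 10% mitochondrial reads. IGF1, the ligand of IGF1R, rose in SKNO-1 from 4.91 ± 1.29 to 23.7 ± 1.2 CPM, by 2.30 ± 0.60 (limma adjusted p = 0.0090), where IGF1R was not called. PROS1, which encodes protein S, rose in SKNO-1 by 0.53 (limma adjusted p = 0.049), a call lost in 15 of 30 other fits.

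KITLG, the ligand of KIT, went from 11.2 ± 0.221 to 4.25 ± 0.977 CPM in Molm-14, by -1.42 ± 0.48 (limma adjusted p = 0.024), and had at most 2 reads in any SKNO-1 library. The KITLG call was lost without any of the Molm-14 DMSO libraries and without RMC-4550 replicate 2. CSF1, the ligand of CSF1R, was read at 2.00 ± 0.130 CPM in MV4-11 and 3.83 ± 0.408 in SKNO-1 with DMSO and was called in neither. FLT3LG, the FLT3 ligand, had 1 to 13 reads in any library, and IL34 and IGF2 had 0 to 8.

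Receptor tyrosine kinases outside the 8 were called in both directions. Of 40 in the table, 14 were tested in Molm-14 (3 higher, 4 lower), 17 in MV4-11 (4 and 1) and 17 in SKNO-1 (3 and 3), and the median log2 change was -0.07, 0.21 and 0.28, against -0.06, -0.01 and -0.05 over all tested genes. FGFR3, a fibroblast growth factor receptor, rose from 8.99 ± 0.824 to 41.1 ± 4.22 CPM in Molm-14 (2.19 ± 0.12; limma adjusted p = 3.1e-09) and from 9.35 ± 0.890 to 25.9 ± 1.54 CPM in MV4-11 (1.47; 6.1e-07). In SKNO-1 FGFR3 gave 0.21 (limma adjusted p = 0.22) at 1.95 CPM with DMSO. LTK, a receptor of the ALK family, rose from 5.89 ± 0.504 to 18.6 ± 1.83 CPM in SKNO-1 (1.66; limma adjusted p = 0.0038) and in MV4-11 by 1.31 (0.030), the latter lost in 5 of 18 fits with 1 library left out. FGFR1 fell by -0.62 in Molm-14 (limma adjusted p = 0.0022) and -0.52 in SKNO-1 (0.012), and gave -0.30 in MV4-11 (0.20), which was -0.49 without the libraries above 10% mitochondrial reads. EPHB4, an ephrin receptor, fell by -0.86 in SKNO-1 (limma adjusted p = 0.0043).

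Among the proteins that bind activated receptors, 6 of 19 tested adaptors rose and 3 fell in Molm-14, 3 and 1 of 20 in MV4-11, and 2 and 5 of 20 in SKNO-1. Of all tested genes, 46.7%, 13.9% and 27.1% were called in these lines, so such counts are read only as which genes were called, here and for the other lists. PTPN11, the target of the inhibitor, fell in Molm-14 by -1.0 ± 0.21 (limma adjusted p = 0.0013) and in SKNO-1 by -0.64 (0.037), the latter lost in 9 of 30 other fits. In MV4-11 PTPN11 gave -0.30 (limma adjusted p = 0.42), and -0.68 without the libraries above 10% mitochondrial reads. DOK2, a docking protein that limits kinase signals, rose by 0.58 in SKNO-1, 0.48 in MV4-11 and 0.40 in Molm-14 (limma adjusted p = 0.0033, 0.023 and 0.019). PLCG2, a phospholipase activated by receptors, rose by 0.33 in SKNO-1, 0.45 in MV4-11 and 0.37 in Molm-14 (limma adjusted p = 0.036, 0.013 and 0.012). The MV4-11 PLCG2 change was 0.19 without the libraries above 10% mitochondrial reads, and the DOK2 call in MV4-11 was lost in 6 of 30 other fits. The PLCG2 call in SKNO-1 was lost in 8 of 30, among them each fit without 1 SKNO-1 library, and the DOK2 call in Molm-14 in 4 of 30. CRKL fell by -0.61 in Molm-14 and -0.64 in SKNO-1 (limma adjusted p = 3.3e-05 and 3.6e-05). In MV4-11 CRKL gave -0.25 (limma adjusted p = 0.061), and -0.39 without those libraries.

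Of 14 tested genes that attenuate receptors, 3 rose and 4 fell in Molm-14, 2 and 0 in MV4-11, and 1 and 1 in SKNO-1. SLA2, an adaptor that promotes receptor downregulation, rose by 1.21, 1.15 and 1.31 on the log2 scale (limma adjusted p = 3.3e-06, 3.0e-05 and 2.9e-06), and these calls held in all settings. ERRFI1, an inhibitor of EGFR family kinases, rose by 1.05 in Molm-14 (limma adjusted p = 0.0010) and 0.85 in MV4-11 (0.015), where it was 0.38 without the libraries above 10% mitochondrial reads and lost its call in 5 of 30 other fits. SH2B3, which restrains KIT and FLT3 signals, fell by -0.97 in Molm-14 (limma adjusted p = 0.0058), from 89.5 ± 6.24 to 48.1 ± 17.2 CPM (SD, n = 3). SH2B3 gave 0.46 in MV4-11 (limma adjusted p = 0.28) and 0.44 in SKNO-1 (0.23). UBASH3B, a phosphatase of the TULA family, fell by -1.59 in Molm-14 (limma adjusted p = 2.3e-05). It gave 0.20 in MV4-11 and -0.01 in SKNO-1, neither called. Transcription factors that act on receptor genes were called 2 higher and 1 lower of 13 in Molm-14, 0 and 1 of 13 in MV4-11, and 1 and 2 of 14 in SKNO-1. GATA2, a factor that drives KIT, fell by -0.81 in MV4-11 (limma adjusted p = 6.6e-04) and -0.71 in SKNO-1 (9.7e-04), where KIT was not called. MYB fell by -0.98 in Molm-14 (limma adjusted p = 1.1e-06), and SPI1, which encodes PU.1, a factor that drives CSF1R, rose there by 0.48 (0.045), lost in 16 of 30 other fits. FOXO3, a factor that activates INSR, fell in SKNO-1 by -0.32 (limma adjusted p = 0.041), lost in 13 of 30.

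Output genes of the MAPK pathway fell in the same libraries. Of 8 tested, 8 fell in Molm-14 and 4 in MV4-11, and 6 of 7 fell in SKNO-1, with median log2 changes of -1.86, -1.03 and -1.52. ETV4, a factor induced by ERK, fell by -3.47, -1.63 and -3.28 (limma adjusted p = 7.3e-08, 5.3e-04 and 2.2e-07), and the ERK phosphatase gene DUSP6 fell by -0.62, -0.93 and -1.30 (0.0076, 0.0016 and 3.7e-05), the Molm-14 call being lost with quantile normalization. Genes of monocyte and macrophage maturation were called in both directions beside CSF1R. In this list 2 rose and 1 fell of 6 in Molm-14, 2 and 0 of 5 in MV4-11, and 2 and 1 of 6 in SKNO-1. CD86, a costimulatory molecule, rose by 1.70, 1.32 and 1.30 (limma adjusted p = 5.6e-08, 3.6e-06 and 1.4e-06), and ITGAM, which encodes CD11b, by 0.46 in MV4-11 and 0.78 in SKNO-1 (4.5e-04 and 9.9e-07). FCGR1A, the high-affinity IgG receptor, fell by -0.91 in Molm-14 (limma adjusted p = 1.6e-04) and by -0.42 in SKNO-1 (0.0498), the latter lost in 17 of 30 other fits. ITGAX, which encodes CD11c, rose by 1.03 in Molm-14 (limma adjusted p = 9.1e-04) and gave 0.25 in MV4-11 (0.49) and 0.49 in SKNO-1 (0.10). The summed level of the 10 maturation genes ran from 226 to 241 CPM in Molm-14 with DMSO and from 276 to 295 CPM with RMC-4550, from 401 to 451 and 495 to 581 CPM in MV4-11, and from 394 to 406 and 520 to 535 CPM in SKNO-1. ITGAX and LYZ, which encodes lysozyme, carried most of these sums. In Molm-14 ITGAX went from 53.7 ± 4.09 to 113 ± 38.3 CPM (SD, n = 3), and LYZ from 111 ± 1.33 to 97.1 ± 47.7 CPM. Of 5 tested myeloid lineage markers, 0 rose and 2 fell in Molm-14, 0 were called in MV4-11, and 1 rose in SKNO-1, and these are named with their values already seen. MPO, the granule enzyme myeloperoxidase, was low in Molm-14 and went from 3.58 ± 0.711 to 1.53 ± 0.785 CPM (SD, n = 3). Its change there was -1.36 (limma adjusted p = 0.017), or -0.84 without the libraries above 10% mitochondrial reads. MPO reached a mean of 5 CPM through SKNO-1, which had 317 CPM with DMSO. CSF2RB, a chain of the GM-CSF receptor, fell in Molm-14 by -0.60 (limma adjusted p = 0.025). LYN, a SRC family kinase, rose by 0.44 in SKNO-1 (limma adjusted p = 0.047). These calls were lost in 3, 6 and 15 of 30 other fits. CD14, CD68 and MRC1 had at most 9, 7 and 11 reads in any library of any line. CD14 and CD163 were at the floor in SKNO-1 in both arms. The part of maturation in the CSF1R and AXL values was not tested, and in bulk cultures more receptor-bearing cells and more mRNA per cell cannot be told apart.

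After each line was centred on its own mean, the genes most like CSF1R over the 18 samples were ALDH3B1, VSIR and PRDM1, with Pearson r of 0.984, 0.984 and 0.981. For AXL they included CISH and SLFN5 (r = 0.975 for both), and for TYRO3 they were FDFT1, HMGCS1 and PYGL (0.969, 0.969 and 0.968). The 3 genes closest to FLT3 included GNPTAB and ARHGAP10 (0.975 and 0.970). IGF1R lay closest to KLHDC10, HIVEP2 and ARFGEF2 (0.976, 0.971 and 0.969), and INSR to C2orf42, KIAA0513 and PLCG2 (0.923, 0.921 and 0.919). For CSF1R 11013 genes were ranked, and all share the same libraries and treatment, so these values are descriptions with no test.

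By GENCODE 29 on GRCh38, FLT3 lies on chr13:28003274-28100592 (minus strand), KIT on chr4:54657918-54740715 (plus), CSF1R on chr5:150053291-150113372 (minus) and AXL on chr19:41219203-41261766 (plus). MERTK lies on chr2:111898479-112029561, TYRO3 on chr15:41557675-41583586 and IGF1R on chr15:98648539-98964530 (all plus), and INSR on chr19:7112255-7294034 (minus). Reads were counted per gene, so these values do not tell exons or isoforms apart.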

How the data were processed

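RNA was measured in 18 cultures, and the authors deposited 1 table of log2 values for 40184 Ensembl gene IDs. The submitters' processing notes name FastQC, STAR, limma and GRCh38, with no role or order, and the counting tool, the annotation and any filter are not given in the sources used here. From the values, each was log2 of reads plus 0.5 on the CPM scale (reads relative to the scaled library). Undoing this gave whole reads, within a tolerance of 0.02 of a read, for 100% of the values under 30 reads in every library. Levels are CPM of those reads over the scaled library. Read totals ran from 17434810 to 19959917 per library, and intervals on reads cover counting error only, since no molecular identifiers were used.

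Changes were tested with limma 3.58.1 in R 4.3.3 on the deposited log2 values. One fit over 18 samples had 1 coefficient per group and a variance trend, and the test was two-sided. Benjamini-Hochberg adjustment covered all genes tested in a comparison, and calls were made at an adjusted p below 0.05. A gene needed at least 1 CPM in at least 3 samples, and in at least 3 samples of each line compared. The fit was checked on simulated data. The 8 members and all gene lists were chosen with earlier results of these data known. The text names the 8 members, up to 4 called genes per other list with a mean of at least 5 CPM, ligands read at 1 CPM or more in 3 samples, and the 3 genes most alike each member tested in all 3 lines. Of the last, 2 genes are not reported here.

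Members were matched by Ensembl ID, and symbols were found for 40069 IDs. Gene positions and the lengths of the longest principal transcripts come from GENCODE 29, and upstream sequences from RefSeq on GRCh38.p14. The alternatives were log2(CPM + 1), log2(CPM + 0.1), no filter, quantile normalization, median-ratio scaling, a mean of 5 CPM or more, a fit per line, a replicate block, no variance trend, voom weights, the mitochondrial share as a covariate, leaving out the 4 libraries above 10% mitochondrial reads, and leaving out each library in turn. Other tools were Python 3.11.15, pandas 2.3.3, SciPy 1.17.1 and matplotlib 3.10.9.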

Additional observations from a re-analysis of the deposited data

Results flagged for a closer look

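The responses of Molm-14 and MV4-11 to RMC-4550 differed for 3 receptors by a test of the difference itself (limma, Benjamini-Hochberg adjusted over 13458 genes, of which 19.5% were called). The difference was 1.28 on the log2 scale for CSF1R (adjusted p = 0.0028), -0.65 for FLT3 (adjusted p = 0.017) and -1.13 for TYRO3 (adjusted p = 0.013), each as Molm-14 minus MV4-11. CSF1R rose in both lines and more in Molm-14, TYRO3 fell in both and more in Molm-14, and FLT3 rose in MV4-11 and was not called in Molm-14. Over 10% mitochondrial reads were found in 3 MV4-11 libraries and 1 Molm-14 library, and their part in these differences was not tested beyond the values without them, which were 1.61 for CSF1R, -0.33 for FLT3 and -0.70 for TYRO3.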

How the results depend on the processing

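Of 1551 values of single members under 12 alternative settings and 18 fits with 1 library left out, 1435 kept their direction and side of the threshold, 49 passed it newly, 52 lost it and 15 changed sign. The rises of CSF1R and AXL in the 3 lines, of FLT3 and INSR in SKNO-1 and the fall of TYRO3 in Molm-14 kept their calls in all of these. In a separate fit per line, MV4-11 had 2 called responses in place of 4, SKNO-1 had 7 in place of 5 (KIT and IGF1R were gained), SKNO-1 against MV4-11 had 3 called levels in place of 5, and Molm-14 against MV4-11 had 1 called difference in place of 3. For SKNO-1 against the FLT3-ITD lines, 0 called became 1 with quantile normalization, 1 with voom weights and 2 with a term for the mitochondrial share. Over all genes, 486 calls became 233 higher and 302 lower, 174 and 310, and 955 and 1541 in these settings. The cause was not tested. With 1 library left out, the members called ran from 3 to 4 in Molm-14, 2 to 4 in MV4-11 and 4 to 5 in SKNO-1, from 4 to 6, 5 to 6 and 4 to 6 for the DMSO levels of MV4-11 against Molm-14, SKNO-1 against Molm-14 and SKNO-1 against MV4-11, from 0 to 1 for SKNO-1 against the FLT3-ITD lines and from 2 to 4 for Molm-14 against MV4-11. The 2 in MV4-11 was without RMC-4550 replicate 2.

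Sign changes were all of values that the test as reported did not call. IGF1R in MV4-11 was 0.031 with median-ratio scaling, 0.0098 with quantile normalization, from -0.12 to 0.15 with 1 library left out, -0.20 and called (limma adjusted p = 0.019) with the mitochondrial share, and -0.24 without the high-share libraries. MERTK in SKNO-1 ran from -0.013 (without RMC-4550 replicate 2) to 0.26. For Molm-14 against MV4-11, IGF1R was 0.15 with the mitochondrial share and 0.15 without the high-share libraries, and INSR was 0.084 with quantile normalization, 0.064 with the mitochondrial share, 0.069 without the high-share libraries, and from -0.083 to 0.041 without single libraries.

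With the replicate number as a block, 4 members were called between SKNO-1 and MV4-11 in place of 5 (AXL lost its call), and no other call changed. Deviations of same-numbered libraries correlated at -0.10 to 0.05 in Molm-14, -0.48 to 0.68 in MV4-11 and 0.01 to 0.15 in SKNO-1. With 3 replicates per group these values cannot settle whether the numbers pair the samples.

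Over all genes, 2045 calls in MV4-11 became 671 in a fit per line, 5054 with the mitochondrial share and 3963 without the high-share libraries, and 1356 and 1214 without RMC-4550 replicate 2 or 3. In SKNO-1, 3969 became 8209, 7270 and 7818. For SKNO-1 against Molm-14, 7821 became 12173 without a filter. For SKNO-1 against the FLT3-ITD lines, 486 became 2496 and 2376, and 276 to 319 without single SKNO-1 libraries. For Molm-14 against MV4-11, 2620 became 1092 in a fit per line and 1397 to 5893 without single libraries. KIT and MERTK in Molm-14, on 0 to 26 reads per library, are limited by depth.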
